A study of Mus musculus with 12 samples.

Results

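Endothelial genes are expressed mainly by the cells that line blood and lymph vessels, and 10 of them were followed here in white adipose tissue of mice lacking Ahnak: Pecam1, Cdh5, Kdr, Flt1, Tek, Tie1, Egfl7, Erg, Sox18 and Cldn5. They were taken by name, as the rows of the deposited value table annotated with exactly 1 of these symbols. Each of the 10 was measured by 1 row, out of 19937 named genes and 34760 rows. The series holds 12 Affymetrix arrays of male mice aged 18 weeks, in 4 groups of 3: wild type (WT) on regular chow, Ahnak knockout (KO) on regular chow, WT on a high fat diet (HFD) and KO on HFD. The diets were fed for 12 weeks, and the HFD held 60% fat, 20% carbohydrate and 20% protein. Both genotypes were housed alike, at 24 degrees with 12 hours of light. The labels give neither the knockout allele, nor the strain, nor the fat depot, nor whether each numbered replicate is a separate animal. The p-values therefore measure only the spread between these samples, which may be technical.

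The members cover the main parts of the endothelial programme. Kdr (VEGFR2) and Flt1 (VEGFR1) are the receptors through which vascular endothelial growth factor A acts, Kdr as the main signalling receptor and Flt1 largely as a trap for the ligand. Tek (Tie2) binds the angiopoietins, of which Angpt1 activates it and keeps vessels quiescent while Angpt2 mostly opposes this, and Tie1 is its co-receptor. Pecam1 (CD31), Cdh5 (VE-cadherin) and Cldn5 (claudin-5) build the contacts between neighbouring endothelial cells. Erg, of the ETS family, and Sox18, of the SOX family, are transcription factors of endothelial identity, and Egfl7 is a protein secreted by endothelium that carries the microRNA Mir126a in an intron. In adipose tissue a dense capillary bed supplies each fat cell, and fat cells are themselves a source of Vegfa.

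Because the microRNA inside Egfl7 was 1 of the few endothelial transcripts that passed the tests, its sequence is shown first, from RefSeq on GRCm38.p6. The mature strand lies at chr2:26591402-26591423 on the plus strand, and its seed (bases 2 to 8) is in capitals. The hairpin lies at chr2:26591357-26591429 on the plus strand, inside Egfl7 (chr2:26581083-26592682), with the mature strand in capitals.
mmu-miR-126a-3p: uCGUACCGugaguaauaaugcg
Mir126a hairpin: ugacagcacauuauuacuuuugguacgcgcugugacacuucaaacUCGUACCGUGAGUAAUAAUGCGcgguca

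The promoters of the members were searched for the short core sequences that factors such as the members Erg and Sox18 are known to bind. RefSeq's promoter table holds windows for 7 of the 10 members, 11 windows in all, and Pecam1, Cdh5 and Sox18 had no entry. In the 250 bases before the start, on either strand, the ETS motif AGGAAG was present in 5 of the 11 windows, which belong to 4 of the 7 members, against 29.5% of all 32851 windows. The SOX motif AACAAT was present in 2 of the 11 windows, against 9.42% of all windows, and the forkhead motif GTAAACA was in 0 of the 11, against 3.17%. A match is a run of letters and says nothing of binding. The Tek window is shown because Tek alone among the members passed a test. It lies at chr4:94739039-94739288 on the plus strand, with a SOX match 63 bases before the start in capitals, and held no ETS match. A further 3 windows, picked because they hold ETS matches, are shown with these in capitals: Tie1 at chr4:118489850-118490099 (minus strand, 219 bases before the start), Flt1 at chr5:147726012-147726261 (minus strand, 129 and 53 bases before) and Egfl7 at chr2:26580833-26581082 (plus strand, 216, 89 and 49 bases before). The Kdr window, not shown, held 0 ETS matches. The Egfl7 windows at chr2:26583615-26583864 and chr2:26586386-26586635, not shown either, held 1 and 0. Also not shown, the Erg window at chr16:95459349-95459598 held 1 ETS and 1 SOX match, and the Cldn5 window held 0 of either. CTTCCT and ATTGTT are the same motifs read on the other strand. Each start is the one given for its window. For Tek (gene at chr4:94739086-94874976) and Flt1 (gene at chr5:147561604-147726438) it lies inside the annotated gene, as do the marked matches.
Tek: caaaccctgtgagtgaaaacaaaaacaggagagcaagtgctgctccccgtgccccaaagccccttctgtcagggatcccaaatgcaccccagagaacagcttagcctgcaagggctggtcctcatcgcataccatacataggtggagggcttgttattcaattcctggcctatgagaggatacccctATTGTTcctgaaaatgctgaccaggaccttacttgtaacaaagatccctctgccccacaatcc
Tie1: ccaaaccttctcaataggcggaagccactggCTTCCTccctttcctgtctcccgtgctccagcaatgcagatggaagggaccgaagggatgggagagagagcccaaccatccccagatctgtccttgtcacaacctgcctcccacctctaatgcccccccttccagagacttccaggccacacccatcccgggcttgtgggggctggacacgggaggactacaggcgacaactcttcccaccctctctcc
Flt1: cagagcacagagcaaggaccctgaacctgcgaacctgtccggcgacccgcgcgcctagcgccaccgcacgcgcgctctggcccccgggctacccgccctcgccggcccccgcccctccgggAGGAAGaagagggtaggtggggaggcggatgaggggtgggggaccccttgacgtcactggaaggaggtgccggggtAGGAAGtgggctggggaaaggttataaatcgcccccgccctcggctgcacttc
Egfl7: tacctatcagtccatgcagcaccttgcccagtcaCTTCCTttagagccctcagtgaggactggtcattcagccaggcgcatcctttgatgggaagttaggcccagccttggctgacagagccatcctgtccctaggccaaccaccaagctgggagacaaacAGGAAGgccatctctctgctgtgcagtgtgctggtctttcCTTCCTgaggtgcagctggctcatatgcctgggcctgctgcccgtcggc

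Ahnak itself was lower on every KO than on every WT array of the same diet, the direction of the genotype label. Of 19937 genes 1145 were lower in this way on chow and 2698 on HFD, so this alone does not verify the knockout. On chow the log2 intensity of Ahnak averaged 10.03 ± 0.076 in WT and 9.33 ± 0.081 in KO (SD of 3 arrays). On HFD it read 10.27, 9.68 and 10.04 on the WT arrays and 9.58, 9.40 and 9.45 on the KO arrays. The labels do not give the deleted part of the gene, so where the probes lie relative to it is not known here. The HFD difference of -0.52 ± 0.13 (SE) had an adjusted p of 0.021, which was 0.074 when WT HFD replicate 3 was left out and 0.062 and 0.067 when KO HFD replicates 2 and 3 were, and the chow difference of -0.69 ± 0.13 had 0.38. All adjusted p-values are from limma with Benjamini-Hochberg adjustment over 19937 genes, and a gene is said to have risen or fallen only at an adjusted p under 0.05. Each difference is the mean of 1 group minus that of the other in log2 units, ± SE, with 3 arrays a group. Within a group, any 2 arrays correlated over the genes with r between 0.985 and 0.996.

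WT HFD replicate 2 stood apart in these genes before any comparison was made. It gave the lowest value of its group for 10 of the 10 members and the lowest of all 12 arrays for 9, the exception being Sox18, which was lowest on KO chow replicate 1. Over all genes, 40.7% were lowest in their group on that array. WT chow replicate 2 was likewise the lowest of its group for 10 of 10 members. The mean of the 10 members by array on chow was 9.20, 8.92 and 9.29 for WT and 9.06, 9.18 and 9.23 for KO. On HFD it was 9.32, 8.62 and 9.30 for WT and 9.47, 9.48 and 9.38 for KO. The median SD of the members was 0.44 for the WT arrays on HFD and 0.20 for those on chow, against 0.13 and 0.08 for the KO arrays, where the median SD over all genes was 0.10 to 0.11 in every group. The same array was also lowest of its group for 22 of 26 other endothelial genes, 10 of 12 mural cell genes and 9 of 9 adipocyte genes, and highest for 13 of 13 macrophage genes and 7 of 7 cell cycle genes. The main results on WT HFD below are given with and without it. As it held the lowest WT HFD value of every member, leaving it out must lower each member's difference between KO and WT on HFD.

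**Figure D1:**
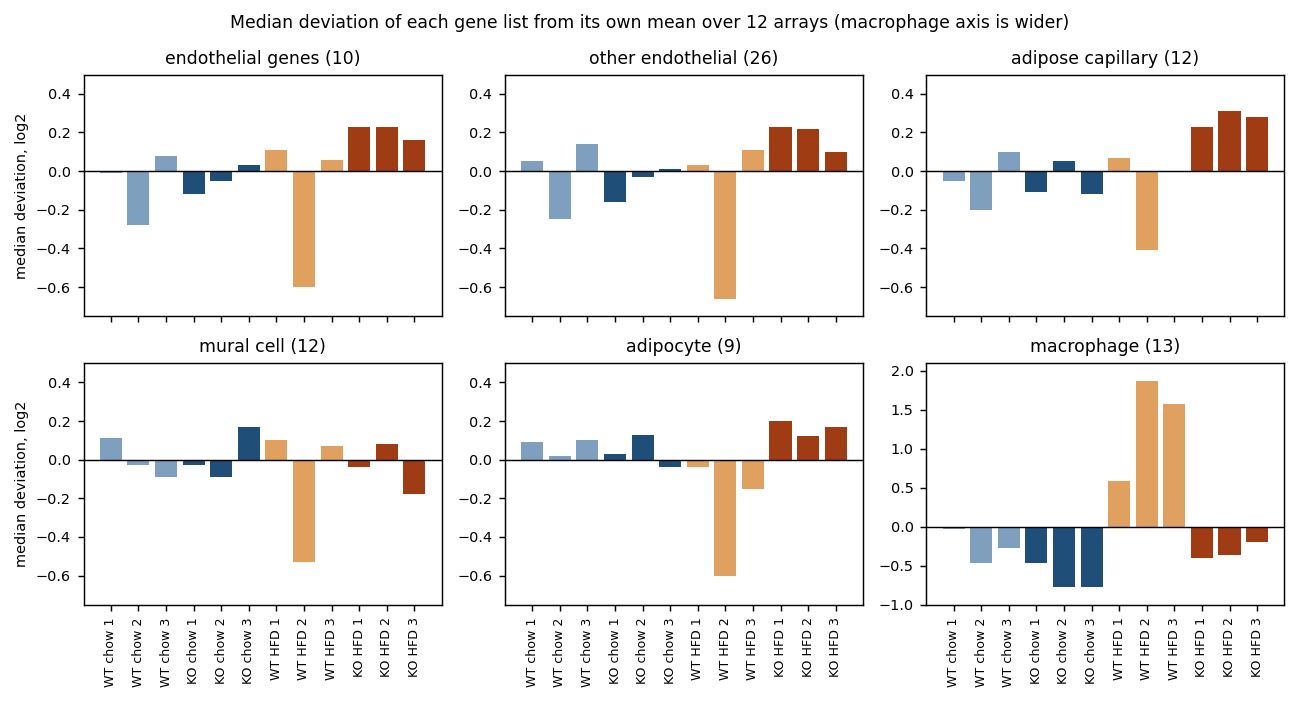
For each gene list, bars give the median over its genes of the difference (log2) between an array's value and that gene's mean over 12 arrays; colours mark the 4 groups, numbers in panel titles the genes measured, and the macrophage axis is wider. WT HFD replicate 2 has the longest downward bar in the endothelial, capillary, mural and adipocyte panels and the longest upward bar in the macrophage panel.

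The 10 genes lay in the upper range of intensities and moved together from array to array. Over the 12 arrays the mean log2 intensity was 10.12 for Pecam1, 10.02 for Cdh5, 9.83 for Cldn5, 9.82 for Kdr, 9.48 for Tek, 8.94 for Egfl7, 8.92 for Tie1, 8.56 for Flt1, 8.28 for Sox18 and 8.09 for Erg. These levels lay between the 68.1 and 92.3 percentiles of all named genes. Intensities of different probe sets do not rank transcripts by abundance. Each gene's values correlated with the mean of the other 9 members over the 12 arrays, from r = 0.688 for Sox18 and 0.713 for Cldn5 to 0.963 for Flt1. The 45 pairs of members had r of 0.446 to 0.945, with a median of 0.801. These correlations describe arrays that share groups and labelling. They and those below include WT HFD replicate 2, the lowest of the 12 arrays for 9 of the 10 members, and were not computed without it. Outside the endothelial lists, the genes whose values were most like the mean of the members over the 12 arrays were Cdh13 (r = 0.970), Tmem88 (0.956), Shank3 (0.953), Ablim1 (0.950), Plcb4 (0.947), Sh3bp5 (0.943), Sema3g (0.937) and Adgrf5 (0.936).

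**Figure D2:**
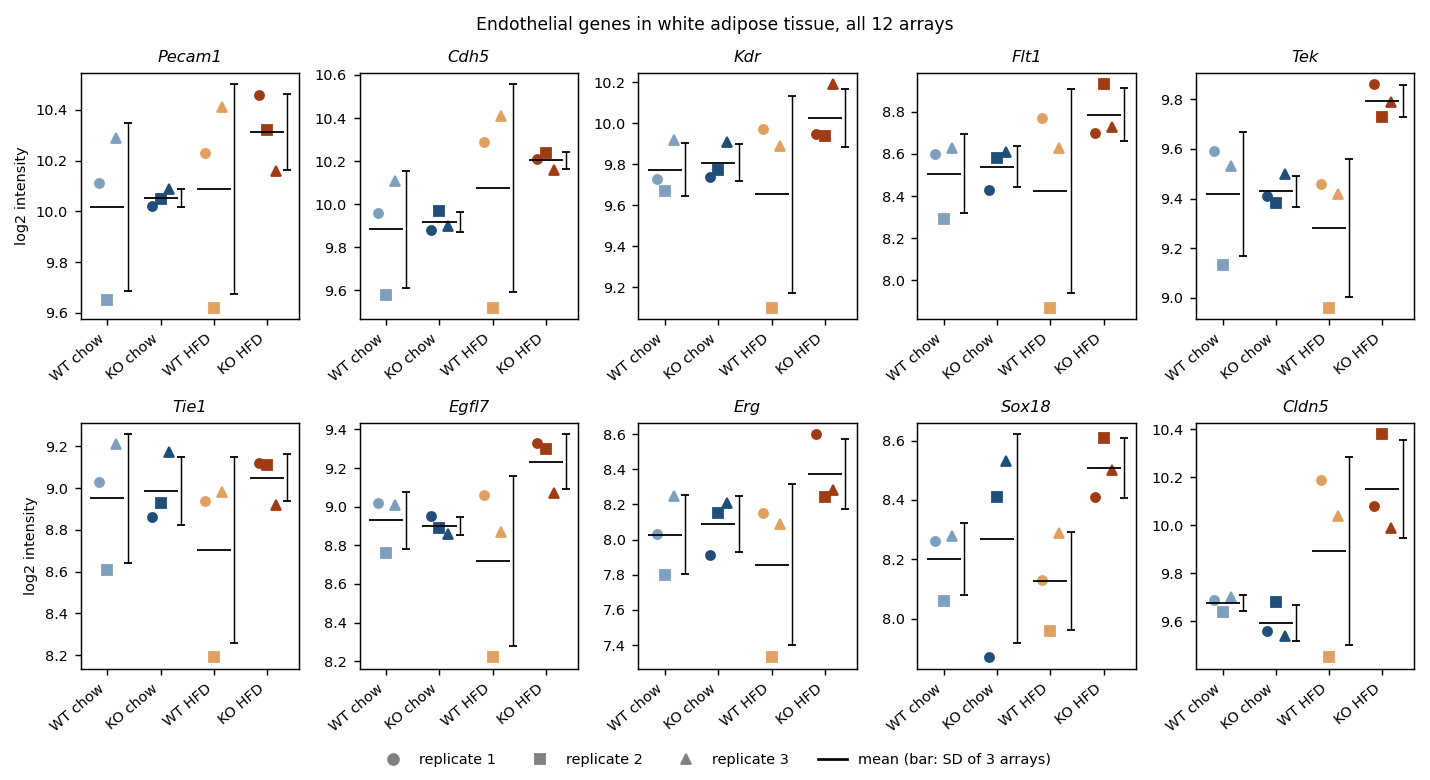
Log2 intensity of the 10 endothelial genes on each of the 12 arrays, by group; the shape gives the replicate number, horizontal lines are group means and bars are the SD of 3 arrays. WT HFD replicate 2 (square) is the lowest array of its group in every panel, and the KO HFD arrays of Tek lie above all other arrays.

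On HFD all 10 endothelial genes had a higher mean in KO than in WT adipose tissue, and 1 of them, the angiopoietin receptor Tek, rose past the test. The differences ran from 0.13 for Cdh5 to 0.52 for Egfl7 and Erg, with a median of 0.37, where the median over all genes was 0.02. Of all genes 54.3% had a positive difference, 13.5% passed in either direction, 6.65% rising and 6.85% falling, so a count of 1 in 10 is close to the background. The KO arrays all lay above the WT arrays for 4 of 10 members, Tek, Egfl7, Erg and Sox18, against 17.4% of all genes. Without WT HFD replicate 2 the median difference was 0.09, with a range of -0.15 to 0.35, 8 of 10 differences were above 0 and 0 passed. Without WT HFD replicate 1 it was 0.50, and 2 passed, Tek and Egfl7. The calls also rested on the spread shared by all 4 groups: with the chow arrays left out of the fit, 0 members and 4 of all genes passed, and every gene named here as rising or falling in KO on HFD, Ahnak included, missed the threshold. In tissue RNA of this kind, fewer endothelial cells and less of a transcript per cell cannot be told apart. Markers of other cell types moved in the same comparison. Of the 13 macrophage genes 12 fell in KO, with a median of -1.62, and the mean of that list was 10.20, 11.58 and 11.15 on the WT HFD arrays and 8.95 to 9.19 on the KO HFD arrays. Of 9 adipocyte genes 3 rose and 1 fell, with list means of 12.41, 11.71 and 12.18 in WT and 12.45 to 12.53 in KO. The macrophage median was -1.25 without WT HFD replicate 2, with 12 falling, and 1 adipocyte gene, Plin1, rose and 0 fell. Their part in the endothelial differences was not tested.

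**Figure D3:**
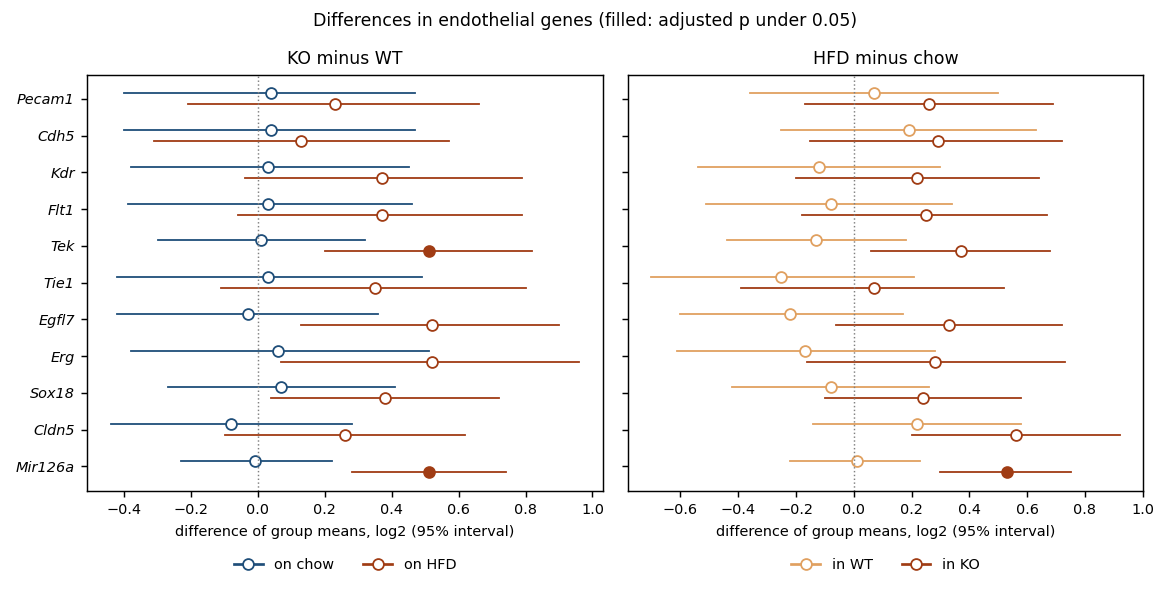
Differences of group means (log2) with 95% intervals for the 10 endothelial genes and Mir126a, KO minus WT at left and HFD minus chow at right; filled points have an adjusted p under 0.05. On chow every interval spans 0, and on HFD only Tek and Mir126a are filled.

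Tek was the clearest of the members. On HFD it read 9.46, 8.96 and 9.42 on the WT arrays and 9.86, 9.73 and 9.79 on the KO arrays. The groups did not overlap, and all 3 KO arrays on HFD also lay above every chow array, which read 9.59, 9.13 and 9.53 in WT and 9.41, 9.38 and 9.50 in KO. The HFD difference was 0.51 ± 0.14, a fold of 1.43, with an adjusted p of 0.035. Without WT HFD replicate 2 it was 0.35, with an adjusted p of 0.12. The call was also lost when WT HFD replicate 3 (0.063), KO HFD replicate 1 (0.12), 2 (0.065) or 3 (0.091) was left out, with differences of 0.48 to 0.58. On chow Tek differed by 0.01 ± 0.14. Tie1, the co-receptor of Tek, read 8.94, 8.19 and 8.98 in WT and 9.12, 9.11 and 8.92 in KO on HFD, so the groups overlapped. Its difference of 0.35 ± 0.21 did not pass (adjusted p = 0.33) and was 0.09 without WT HFD replicate 2.

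Of the 3 angiopoietins, Angpt1 differed most between genotypes on HFD. This activating ligand of Tek was strongly lower on HFD in WT, reading 8.42, 8.28 and 8.62 on chow and 6.12, 6.36 and 6.19 on HFD. In KO it read 8.29, 8.22 and 8.32 on chow and 7.74, 6.82 and 7.90 on HFD, so the KO HFD arrays lay between the WT HFD arrays and all chow arrays. It fell by 2.22 on the log2 scale (SE 0.22) with diet in WT (adjusted p = 4.2e-04), while in KO the change of -0.79 ± 0.22 did not pass (adjusted p = 0.057). On HFD it rose in KO against WT by 1.26 ± 0.22, a fold of 2.4 (adjusted p = 0.0072), and by 1.33 without WT HFD replicate 2 (adjusted p = 0.018). The difference between the 2 diet changes was 1.43 ± 0.31, with an adjusted p of 0.087. The adjusted p was 0.028 when WT HFD replicate 1 was left out and 0.0065 when the KO HFD array at 6.82 was. In the other 10 fits with an array left out, that without WT HFD replicate 2 among them, this difference did not pass. Angpt2, the context-dependent antagonist, went the other way with diet. In WT it read 6.63, 6.48 and 6.44 on chow and 7.45, 7.60 and 7.54 on HFD. In KO it read 6.23, 6.50 and 6.31 on chow and 7.01, 7.29 and 7.44 on HFD, so in each genotype the HFD arrays lay above the chow arrays. With HFD it rose by 1.01 ± 0.11 in WT, at an adjusted p of 5.7e-04. In KO it rose by 0.90 ± 0.11, at an adjusted p of 0.0047. On HFD every KO array was below every WT array, though barely, at 7.44 against 7.45. Of all 19937 genes 2698 were lower in this way. The Angpt2 difference of -0.28 ± 0.11 did not pass (adjusted p = 0.13) and was -0.25 without WT HFD replicate 2. Angpt4, a further ligand of the family, fell by 0.70 ± 0.10 when WT was fed HFD (adjusted p = 0.0014) and by 0.46 when KO was (adjusted p = 0.029, but 0.084 to 0.11 without KO chow replicate 1 or 3 or KO HFD replicate 2 or 3), and differed by 0.04 ± 0.10 between genotypes on HFD.

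**Figure D4:**
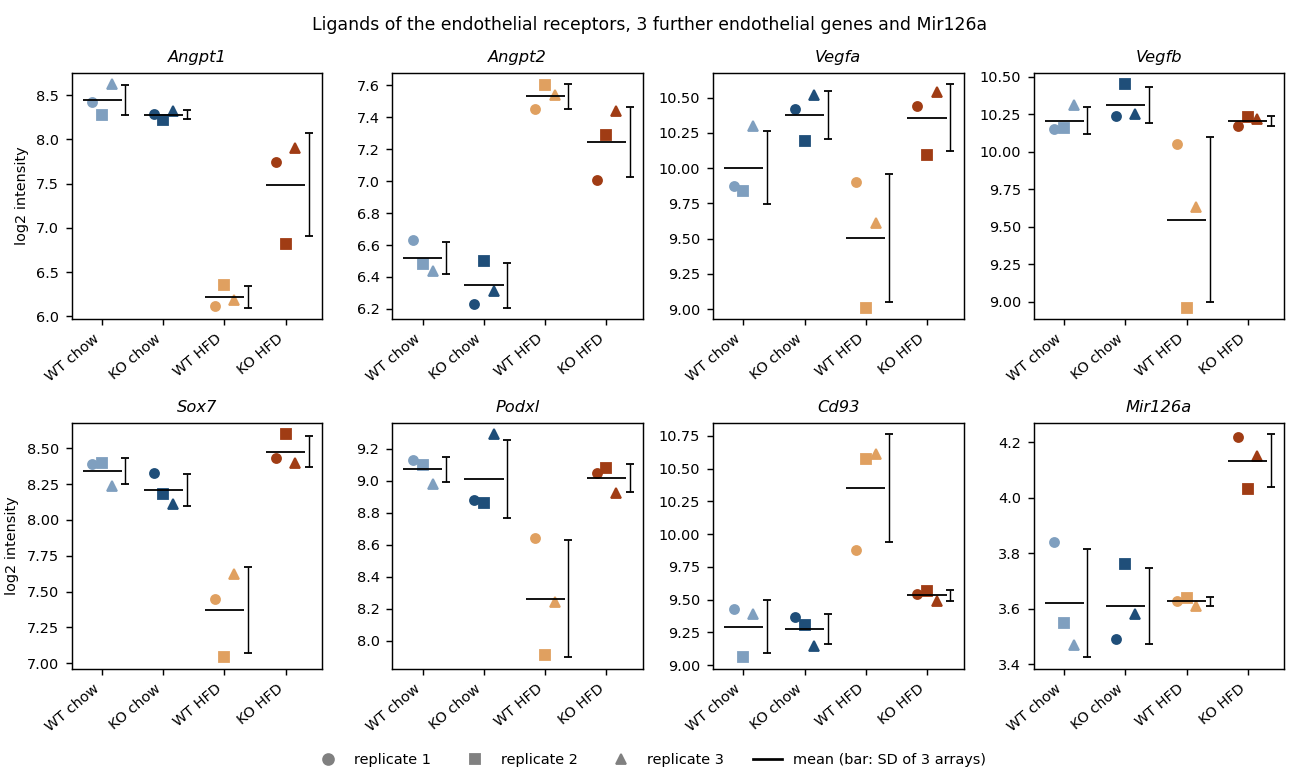
Log2 intensity of 4 ligands (Angpt1, Angpt2, Vegfa, Vegfb), 3 further endothelial genes (Sox7, Podxl, Cd93) and Mir126a on the 12 arrays; the shape gives the replicate number, lines are group means and bars the SD of 3 arrays. Angpt1 and Sox7 are lowest in WT on HFD and Mir126a is highest in KO on HFD, without overlap with the other groups.

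The VEGF receptors had positive differences on HFD that did not pass. Kdr read 9.97, 9.10 and 9.89 in WT and 9.95, 9.94 and 10.19 in KO on HFD, a difference of 0.37 ± 0.19 (adjusted p = 0.25). Flt1 read 8.77, 7.87 and 8.63 in WT and 8.70, 8.93 and 8.73 in KO on HFD, also 0.37 ± 0.19 (adjusted p = 0.27). In both genes the WT arrays other than replicate 2 lay within or close to the KO range, and without that array each difference was 0.09. Their ligand Vegfa, the main angiogenic factor of the family, read 9.90, 9.01 and 9.61 in WT and 10.44, 10.09 and 10.54 in KO on HFD, with no overlap. It rose by 0.85 ± 0.21, a fold of 1.8 (adjusted p = 0.025). Without WT HFD replicate 2 the Vegfa difference was 0.60 (adjusted p = 0.073), and the call was lost too without WT HFD replicate 3 (0.063) or KO HFD replicate 1 (0.087) or 3 (0.089). On chow Vegfa read 9.87, 9.84 and 10.30 in WT and 10.42, 10.19 and 10.52 in KO, with overlap and a difference of 0.38 ± 0.21 (adjusted p = 0.91). Vegfb, a ligand of Flt1, read 10.05, 8.96 and 9.63 in WT and 10.17, 10.23 and 10.22 in KO on HFD, a difference of 0.66 ± 0.20 just short of the threshold (adjusted p = 0.054) that was 0.37 without WT HFD replicate 2 (adjusted p = 0.098) and 0.91 without WT HFD replicate 1 (adjusted p = 0.0023). Vegfb passed with a variance trend (adjusted p = 0.047), with array weights (8.6e-04) and when only genes brighter than the median were tested (0.036). Pgf, the other ligand of Flt1, differed by 0.09 ± 0.30, or -0.14 without WT HFD replicate 2, and Vegfc and Vegfd, which act mainly on lymphatic vessels, by -0.10 ± 0.12 and 0.00 ± 0.09. Thus 2 of the 8 ligands, Angpt1 and Vegfa, rose in KO on HFD and 0 fell, where 6.65% of all genes rose and 6.85% fell. Without WT HFD replicate 2 Angpt1 alone rose. Among 10 partners of these receptors, Ephb4, a receptor of venous endothelium, rose by 0.49 ± 0.12 (adjusted p = 0.025, but 0.093 and 0.066 when KO HFD replicates 1 and 2 were left out). Nrp2, a VEGF and semaphorin co-receptor that macrophages can also carry, fell by 0.75 ± 0.15 (adjusted p = 0.011). These differences were 0.32 (adjusted p = 0.044) and -0.58 (adjusted p = 0.029) without WT HFD replicate 2.

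The 3 junction genes showed the smallest differences between genotypes on HFD. Pecam1 read 10.23, 9.62 and 10.41 in WT and 10.46, 10.32 and 10.16 in KO, a difference of 0.23 ± 0.20 (adjusted p = 0.54). Cdh5 read 10.29, 9.52 and 10.41 in WT and 10.21, 10.24 and 10.16 in KO, a difference of 0.13 ± 0.20 (adjusted p = 0.75). For Cdh5 the other 2 WT arrays lay above all 3 KO arrays, and without WT HFD replicate 2 the sign turned, to -0.15 ± 0.13 for Cdh5 and -0.01 ± 0.16 for Pecam1. Cldn5, the claudin of tight endothelial barriers, read 10.19, 9.45 and 10.04 in WT and 10.08, 10.38 and 9.99 in KO, a difference of 0.26 ± 0.16 (adjusted p = 0.37) that was 0.03 without that array. Of 10 further junction genes 2 rose in KO on HFD, against 6.65% of all genes. Jup (plakoglobin), which links cadherins to the cytoskeleton, rose by 0.71 ± 0.16 (adjusted p = 0.017) and F11r, a junctional adhesion molecule, by 0.50 ± 0.13 (adjusted p = 0.034). Both are also made by epithelia and other cells. The Jup difference was 0.51 without WT HFD replicate 2 (adjusted p = 0.039), and its call was lost without WT HFD replicate 3 (0.056) or KO HFD replicate 1 (0.071) or 3 (0.052). The F11r call was lost without WT HFD replicate 2 (a difference of 0.35, adjusted p = 0.11) or 3 (0.083), and when any KO HFD array was left out (0.057 to 0.13).

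Both transcription factors had KO arrays wholly above WT arrays on HFD. Erg read 8.15, 7.33 and 8.09 in WT and 8.60, 8.24 and 8.28 in KO, and the difference was 0.52 ± 0.20 (adjusted p = 0.12), or 0.25 without WT HFD replicate 2. Sox18 read 8.13, 7.96 and 8.29 in WT and 8.41, 8.61 and 8.50 in KO, and the difference was 0.38 ± 0.15 (adjusted p = 0.13), or 0.30 without that array. Sox18 was thus the member that depended least on it in size, and it passed (adjusted p = 0.035) when KO chow replicate 1, which read 7.87, was left out of the fit. Its relative Sox7, of the same SOX subgroup, differed far more. Sox7 read 7.45, 7.04 and 7.62 in WT on HFD, 8.43, 8.60 and 8.40 in KO on HFD, and 8.11 to 8.40 on the 6 chow arrays. It rose in KO on HFD by 1.10 ± 0.13, a fold of 2.15 (adjusted p = 0.0038), and by 0.94 without WT HFD replicate 2 (adjusted p = 0.0077). It fell with diet in WT by 0.97 ± 0.13 (adjusted p = 0.0011) and changed by 0.27 ± 0.13 in KO (adjusted p = 0.25). The difference of these diet changes was 1.24 ± 0.19 (adjusted p = 0.055, or 0.0033 without WT HFD replicate 1). In the other 11 fits with an array left out this difference did not pass. The third member of that subgroup, Sox17, differed on HFD by 0.35 ± 0.25, and the ETS factors Fli1 and Ets1 by -0.13 ± 0.12 and 0.07 ± 0.12.

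Egfl7 and its intronic microRNA were both higher in KO on HFD, the microRNA past the test. Egfl7 read 9.06, 8.22 and 8.87 in WT and 9.33, 9.30 and 9.07 in KO on HFD, which barely separated the groups. The difference was 0.52 ± 0.18 (adjusted p = 0.077), or 0.27 without WT HFD replicate 2 (adjusted p = 0.19) and 0.69 without WT HFD replicate 1 (adjusted p = 0.014). Mir126a lay between 3.47 and 3.84 on every array outside KO on HFD. On chow it read 3.84, 3.55 and 3.47 in WT and 3.49, 3.76 and 3.58 in KO, and on HFD 3.63, 3.64 and 3.61 in WT and 4.22, 4.03 and 4.15 in KO. Its KO HFD arrays lay above all 9 others. Mir126a rose in KO against WT on HFD by 0.51 ± 0.10, a fold of 1.42 (adjusted p = 0.011), and with diet in KO by 0.53 ± 0.10 (adjusted p = 0.021). The diet call was lost without KO chow replicate 1 (0.080) or 3 (0.069) or KO HFD replicate 3 (0.091). The HFD difference was 0.52 without WT HFD replicate 2 (adjusted p = 0.032). That array read 3.64 for Mir126a, the highest of its group. The adjusted p was 0.051 without KO HFD replicate 1. The row lies at the 9.04 percentile of mean intensity, the table has no detection calls, and a whole-transcript probe set does not separate the hairpin, with the mature strand shown above, from the spliced-out intron.

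**Figure D5:**
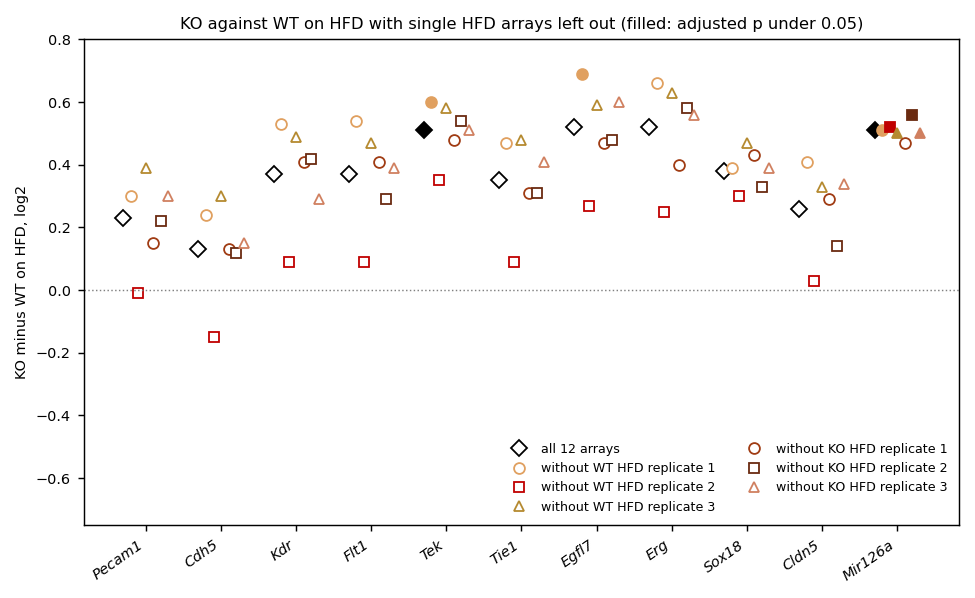
Differences between KO and WT on HFD (log2) for the 10 endothelial genes and Mir126a with all 12 arrays (diamonds) and with each HFD array left out in turn; filled symbols have an adjusted p under 0.05. Leaving out WT HFD replicate 2 gives the lowest value for each of the 10 genes and takes Cdh5 and Pecam1 below 0, while Mir126a stays between 0.47 and 0.56.

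On chow the genotypes did not differ detectably in any of these genes. The 10 differences lay between -0.08 for Cldn5 and 0.07 for Sox18, with a median of 0.03, adjusted p of 0.995 to 0.998 and 95% intervals within -0.44 and 0.51. For 8 of 10 the difference was above 0, against 53.6% of all genes. No member passed and the groups overlapped for all 10, where 0% of all genes passed and 11.5% did not overlap in either direction. The sign depended on single arrays. Without WT chow replicate 2, the low WT array, the median was -0.11 and 1 of 10 differences was above 0. Without KO chow replicate 3 the median was -0.02 and 3 of 10 were above 0. Sox18 had the widest spread in KO on chow, at 7.87, 8.41 and 8.53, and Cldn5 the narrowest in WT, at 9.69, 9.64 and 9.70. No ligand, receptor partner or gene of any other list passed on chow.

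Diet alone did not move the members past the test in either genotype. In WT the change with HFD ran from -0.25 ± 0.21 for Tie1 to 0.22 ± 0.16 for Cldn5, with a median of -0.10, 3 of 10 above 0 (44.3% of all genes), 0 passing (24.1% of all genes) and 0 without overlap (38.8%). Without WT HFD replicate 2 all 10 changes were above 0, with a median of 0.13, and the junction genes Cdh5 (0.47, adjusted p = 0.033) and Cldn5 (0.44, adjusted p = 0.021) passed. With WT chow replicate 2 left out as well, the median was 0.03, 5 of 10 were above 0 and Cdh5 passed at 0.32 (adjusted p = 0.046), with Cldn5 at 0.42 (adjusted p = 0.058). When WT chow replicate 2 alone was left out, the median was -0.18 and 2 of 10 were above 0. Among the fits with a single array left out, the WT median turned positive only without WT HFD replicate 2. In KO all 10 members had a higher mean on HFD, against 48.2% of all genes, from 0.07 ± 0.21 for Tie1 to 0.56 ± 0.16 for Cldn5, with a median of 0.27. The arrays did not overlap for 8 of 10, all but Tie1 and Sox18, against 15.1% of all genes that were higher in this way. None of the 10 passed, against 6.34% of all genes. Cldn5 came nearest: it read 9.56, 9.68 and 9.54 on chow and 10.08, 10.38 and 9.99 on HFD in KO, with an adjusted p of 0.068, which was 0.043 without WT HFD replicate 1 and 0.016 without WT HFD replicate 2, arrays that enter only the estimate of spread. Tek followed at 0.37 ± 0.14 (adjusted p = 0.15) and Egfl7 at 0.33 ± 0.18 (adjusted p = 0.30). The KO groups contain neither of the low WT arrays, but KO chow replicate 1 was the lowest of its group for 7 of 10 members. Without it the median change in KO was 0.22, with a range of 0 to 0.54.

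The response to diet was not shown to differ between genotypes for any member. With all 12 arrays the interaction, KO diet change minus WT diet change, was positive for all 10 (51.3% of all genes), from 0.10 for Cdh5 to 0.55 for Egfl7, with a median of 0.33. When WT HFD replicate 2 was left out it was positive for 8 of 10, from -0.18 to 0.34, with a median of 0.09. With all arrays its lowest adjusted p was 0.23, for Tek at 0.50 ± 0.20. Of all genes 1 passed this test (0.00502%), the liprin gene Ppfibp2, which is in none of the lists. The number of all genes passing was 0 without WT HFD replicate 2 and 2060 without WT HFD replicate 1. Mir126a had an interaction of 0.52 ± 0.15 (adjusted p = 0.12).

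Of 26 further endothelial genes, 22 had a positive difference between KO and WT on HFD, with a median of 0.35, 2 rose and 1 fell. Of all genes 54.3% had a positive difference, 6.65% rose and 6.85% fell, so the count passing is close to the background. The median was 0.11 without WT HFD replicate 2, 20 were positive, and the same 3 genes passed. Those that rose were Sox7 and Podxl (podocalyxin, a sialomucin of the luminal surface). Podxl read 8.64, 7.91 and 8.24 in WT and 9.05, 9.08 and 8.92 in KO, a difference of 0.76 ± 0.16 (adjusted p = 0.014), and its adjusted p was 0.054 without WT HFD replicate 3 and 0.056 without KO HFD replicate 1. For Podxl the difference was 0.58 when WT HFD replicate 2 was left out (adjusted p = 0.045). Cd93, a lectin-like receptor that myeloid cells also carry, fell, at 9.88, 10.57 and 10.61 in WT and 9.54, 9.57 and 9.49 in KO (-0.82 ± 0.17, adjusted p = 0.012, but 0.054 without WT HFD replicate 3), and the difference was -0.71 without WT HFD replicate 2. With diet in WT, Sox7 and Podxl fell and Cd93 rose, and Fli1, which is also present in blood cells, rose by 0.45 (adjusted p = 0.023, but 0.060 to 0.094 without WT chow replicate 2 or 3 or WT HFD replicate 2 or 3). Rasip1, a junction regulator, at 0.61 ± 0.20 (adjusted p = 0.066) and Ramp2, the adrenomedullin co-receptor, at 0.50 ± 0.18 (adjusted p = 0.093) had positive differences on HFD that did not pass. These were 0.36 and 0.25 without WT HFD replicate 2. Of 12 genes of adipose capillaries, which handle fatty acids, 0 passed on HFD between genotypes, against 13.5% of all genes. A positive difference was seen for 10 of the 12, against 54.3% of all genes, with a median of 0.40, or 0.20 without WT HFD replicate 2. Among these, Btnl9 at 0.65 ± 0.22 (adjusted p = 0.078) and Gpihbp1, the anchor of lipoprotein lipase, at 0.61 ± 0.22 (adjusted p = 0.091) were closest to the threshold, and without that array they were 0.43 and 0.33. The fatty acid binding protein Fabp5, which macrophages also make, was lower at -0.83 ± 0.30 (adjusted p = 0.090), or -0.70 without that array. Fabp4, another of the 12, is also in the adipocyte list, whose median in the same comparison was 0.43, or 0.22 without that array.

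Of 10 genes of sprouting endothelium 2 fell in KO on HFD and 0 rose, where 6.85% of all genes fell and 6.65% rose. The chemokine receptor Cxcr4 fell by 0.87 ± 0.16 (adjusted p = 0.0079) and the urokinase receptor Plaur by 1.19 ± 0.25 (adjusted p = 0.013, but 0.052 without KO HFD replicate 1). They fell by 0.73 and 0.87 without WT HFD replicate 2. Both had risen with diet in WT, by 1.20 and 1.40, and both are abundant on leukocytes. Of 6 measured genes of activated or venular endothelium, Icam1, an adhesion molecule for leukocytes, fell by 0.53 ± 0.10 (adjusted p = 0.0091), Lrg1, a secreted glycoprotein, fell by 0.58 ± 0.16 (adjusted p = 0.033) and the venous transcription factor Nr2f2 rose by 0.75 ± 0.14 (adjusted p = 0.0089). Icam1 differed by -0.45 and Nr2f2 by 0.61 without WT HFD replicate 2, and both passed. The Lrg1 call was lost without any of 5 HFD arrays, WT HFD replicate 1 being the exception (adjusted p of 0.057 to 0.12). The lymphatic list had 0 of 6 measured genes passing between genotypes on HFD. With diet in WT 2457 of all 19937 genes fell, and 4 of 6 in this list: Prox1, the lymphatic master regulator, Flt4, the receptor of Vegfc, Reln and Mmrn1. It was 3 of 6 without WT HFD replicate 2, as Flt4 missed the threshold (adjusted p = 0.12). Of 12 mural cell genes, Pdgfrb, the receptor that recruits pericytes, fell in KO on HFD by 0.72 ± 0.10 (adjusted p = 0.0046) and Cspg4 by 0.35 ± 0.10 (adjusted p just under 0.05). Pdgfrb fell by 0.67 without WT HFD replicate 2 (adjusted p = 0.014). The Cspg4 call was lost in 9 of 12 fits with an array left out, at adjusted p of 0.056 to 0.18. Stromal cells also express Pdgfrb, and the stromal gene Col1a1 fell by 0.86 ± 0.18 (adjusted p = 0.014, but 0.060 and 0.052 when KO HFD replicates 1 and 3 were left out). All 7 cell cycle genes fell in KO on HFD, with a median of -1.62, and rose with diet in WT. The median was -1.32 without WT HFD replicate 2, and all 7 still passed. Platelet and red cell genes (5 measured) and mesothelial genes (6) had 0 passing between genotypes on HFD.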

How the data were processed

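White adipose RNA was hybridised to 12 arrays. The authors deposited 1 value table whose values are on a log2 scale (base inferred from their range, 2.09 to 14.2, within a 16-bit scanner). The submitters' processing notes name affy, without a version. The sources used here do not say how background was corrected, probes summarized or arrays normalized. Array medians were 5.78 to 5.92. Rows were named through the platform annotation: 21640 rows had 1 symbol, 1321 several and 11799 none. The row with the highest mean stood for a gene with several rows. Deposited values went unfiltered into limma 3.58.1 under R 4.3.3: a mean for each of 4 groups, contrasts, eBayes with 8 residual degrees of freedom, two-sided tests, and Benjamini-Hochberg adjustment over 19937 genes. The method was tested on simulated data with independent normal noise and, for each gene, the same spread in all groups. The wider spread of the members in WT on HFD was therefore not covered. The number of arrays limits the precision. The members and gene lists were chosen with earlier results of these data known. Some genes, such as Flt4, Angpt2 and Dll4, stand in several lists. Named are the members, Ahnak, Mir126a, all VEGF and angiopoietin ligands, up to 5 genes of each list with the smallest p on HFD and 3 in other comparisons, and the 8 genes most like the members; Sox17, Ets1, Fli1 and the fourth lymphatic gene were chosen after their values were seen. Alternatives were other fits, scalings, filters, row choices and each array left out.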

Additional observations from a re-analysis of the deposited data

How the results depend on the processing

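The number of arrays limits the precision, and the table has no detection calls for dim rows such as Mir126a. Whether the replicate numbers pair the samples cannot be told from 3 arrays a group. Over 18 same-numbered pairs of arrays the correlation of deviations from group means ran from -0.408 to 0.379, and 4 pairs were above 0.1. Between differently numbered arrays it reached -0.482 and 0.433. With the replicate number as a block, Tek had an adjusted p of 0.017 on HFD, and 740 genes passed for diet in KO and 0 for the interaction. With the other 2 groups left out of the fit, 0 endothelial and 4 of all genes passed between genotypes on HFD, against 1 and 2691, and 2 endothelial (Cldn5 and Tek) and 585 of all genes passed for diet in KO, against 0 and 1264. In that fit the calls of Angpt1 (adjusted p = 0.065), Sox7 (0.054) and Mir126a (0.054) on HFD were lost too. Adjusted over all rows of the table, 0 endothelial genes passed on HFD (Tek 0.062), 837 genes for diet in KO and 3 for the interaction. Over the genes brighter than the median, which leave out Mir126a, 85 passed the interaction.

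Array weights, whose estimation stopped before its tolerance, raised the counts of all genes to 7648 on HFD, 9985 for diet in WT, 2137 for diet in KO and 2819 for the interaction, and those of endothelial genes to 2 on HFD (Tek and Egfl7), 3 for diet in WT (Cdh5, Cldn5 and Pecam1) and 1 for diet in KO (Cldn5). Signs turned there for Tek on chow (-0.04), on HFD for Pecam1 (-0.12), Cdh5 (-0.20), Vegfd (-0.16) and Pgf (-0.23), for diet in WT for Kdr (0.11), Flt1 (0.08), Erg (0.05) and Sox18 (0.06), and in the interaction for Pecam1 (-0.12) and Cdh5 (-0.20). With arrays centred on the same median, which moved the median of all genes for diet in WT from -0.03 to 0.07, signs turned for Vegfd on HFD (-0.01) and for Flt1 (0.01) and Sox18 (0.02) with diet in WT, and 1 endothelial gene, Cldn5, passed for diet in KO.

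With both WT arrays numbered 2 left out, an alternative chosen after seeing the data, Tek differed on HFD by 0.35 (adjusted p = 0.034). All genes passing numbered 994 on HFD, 2295 for diet in WT and 0 for the interaction, and endothelial genes 1 for diet in WT and 3 for diet in KO (Cdh5, Tek and Cldn5). Signs turned on chow for Pecam1 (-0.14), Cdh5 (-0.12), Kdr (-0.02), Flt1 (-0.07), Tek (-0.13), Tie1 (-0.14) and Erg (-0.05), on HFD for Pecam1 (-0.01), Cdh5 (-0.15), Vegfd (-0.05) and Pgf (-0.14), for diet in WT for Kdr (0.11) and Flt1 (0.09), and in the interaction for Cdh5 (-0.03).

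With each array left out in turn, endothelial genes passing numbered 0 to 2 on HFD, 0 to 2 for diet in WT and 0 to 1 for diet in KO. All genes passing numbered 0 to 1 on chow, 904 (without KO HFD replicate 1) to 3930 on HFD, 3072 to 5285 for diet in WT, 62 to 1509 for diet in KO and 0 to 2060 for the interaction. Differences on chow ranged from -0.14 to 0.17 for Pecam1, -0.12 to 0.15 for Cdh5, -0.02 to 0.11 for Kdr, -0.07 to 0.10 for Flt1, -0.13 to 0.10 for Tek, -0.14 to 0.16 for Tie1, -0.11 to 0.01 for Egfl7, -0.05 to 0.17 for Erg and -0.06 to 0.27 for Sox18. On HFD they ranged from -0.01 to 0.39 for Pecam1, -0.15 to 0.30 for Cdh5, -0.08 to 0.09 for Vegfd and -0.14 to 0.24 for Pgf. For diet in WT they ranged from -0.11 to 0.30 for Pecam1, -0.28 to 0.16 for Kdr, -0.26 to 0.19 for Flt1, -0.27 to 0.03 for Tek, -0.42 to 0.01 for Tie1, -0.39 to 0.03 for Egfl7, -0.31 to 0.09 for Erg and -0.16 to 0.01 for Sox18, and in the interaction from -0.05 to 0.37 for Pecam1 and -0.18 to 0.27 for Cdh5. The causes of these changes were not tested.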
